A study of Mus musculus with 18 samples.

Results

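The kidney time course under chronic intermittent hypoxia consisted of 6 two-channel cDNA arrays of the 18 in the series, chosen by their titles: 2 arrays (A and B) after 1 week, 2 after 2 weeks and 2 after 4 weeks. The animals were CD1 mice exposed from postnatal day 2 in a chamber where oxygen switched between 21% and 11% every 4 min. Matching time courses of 6 arrays each came from animals in normal air (normoxia) and in hypoxia held at 11% oxygen. All groups came from CD1 litters, and the labels name no other treatment or allele. Each array paired kidney RNA of 1 animal labelled male (Cy5) with that of 1 animal labelled female (Cy3), with 60 ug of total RNA per channel. By title and treatment both were kept in the same condition for the same time, though an animal name on 2 weeks A differs from this. The deposited value of a probe is the log2 ratio of the channels, and here it is given relative to the median of its array. A value of 1 is a factor of 2 between the channels. The labels do not say which channel is the numerator, so signs are those of the deposited values and say nothing about which sex was higher. A response that both animals of an array share cancels in this ratio, so the time course shows where the contrast between the 2 animals moved with exposure time, not how far expression moved from air.

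Intermittent hypoxia exposes tissue to repeated cycles of low oxygen and reoxygenation. Low oxygen stabilises the HIF transcription factors, which raise glycolytic enzymes, glucose transporters and mitophagy receptors, while reoxygenation is a source of reactive oxygen species. In the kidney most ATP comes from oxidation of fatty acids in the mitochondria of the proximal tubule. In mice the last nephrons form within days of birth, and tubules mature over the following weeks. Mouse kidney is also strongly sex-biased in adults, because proximal tubule cells respond to androgen.

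The array named 2 weeks B stood apart from the other 5. Its median absolute deviation was 0.44, against 0.15 to 0.23 on the others, and 13.7% of its values lay beyond 1 in size, against 0.30% to 1.02%. It also had a value for the fewest probes, 42.9% of all on the array, where the other 5 had values for 44.5% to 65.7%. Across features, arrays of the same week correlated with Pearson's r of 0.41 (1 week), 0.24 (2 weeks) and 0.26 (4 weeks), while the 12 pairs from different weeks gave 0.04 to 0.43, so the 2 ranges overlapped. These correlations are descriptions across features of single arrays. For 2 weeks A the Cy3 animal carries the name of a 1-week animal, the same name as on 1 week A, although title and treatment say 2 weeks. The tests treated 1 week A and 2 weeks A as independent arrays. Eif2s3y, the Y-linked translation initiation subunit gene that only males carry, read -2.16 and 0.19 at 1 week, -0.50 and -1.48 at 2 weeks and 0.10 and -1.63 at 4 weeks. Its ratio thus held both signs among arrays whose labels give the same dye to the same sex. Of the 23 markers chosen for kidney segments and other cell types, 5 were measured: Lrp2 and Miox of the proximal tubule, Calb1 of the distal tubule, Podxl of podocytes and Pecam1 of endothelium. None of the erythroid, leukocyte, adrenal and fat markers among the 23 was measured. Ratios hold no level, so these markers could not be used to check the tissue.

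**Figure D1:**
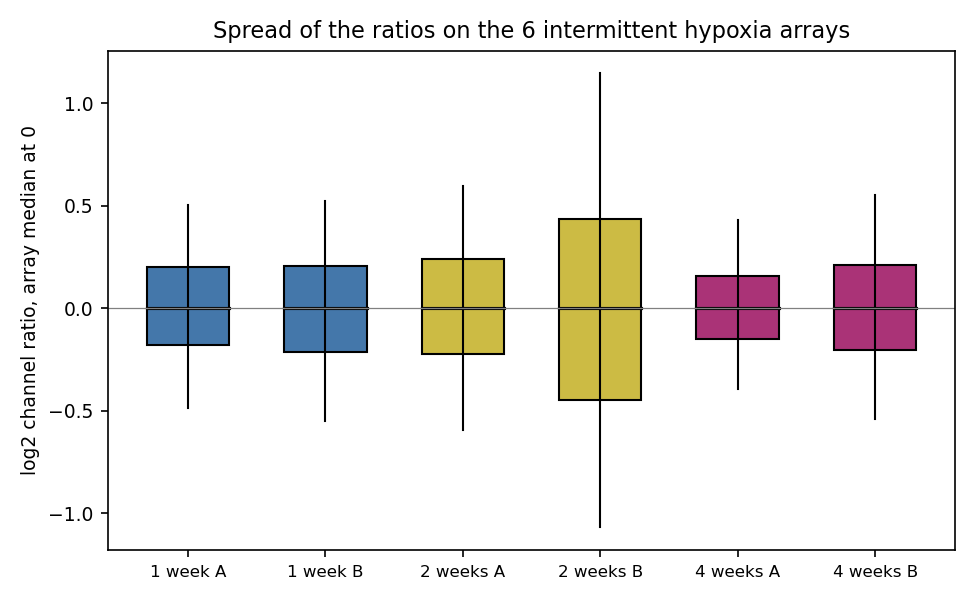
Spread of the median-centred log2 channel ratio on each of the 6 intermittent hypoxia arrays (vertical axis, log2 scale). Boxes span the 25th to 75th percentile, the line within is the median and thin lines reach the 5th and 95th percentiles; on 2 weeks B they run from -1.07 to 1.14, and on 4 weeks A from -0.39 to 0.43.

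Between 1 and 4 weeks of intermittent hypoxia no gene passed the test. Of 5751 features (4109 genes and 1642 probes with no single gene symbol), 0 had an adjusted p under 0.05 in limma's moderated test (percent called 0), and 153 (2.66%) had an unadjusted p under 0.05, 88 higher and 65 lower at 4 weeks. The median size of the difference was 0.18 with a median SE of 0.30, and 28 features differed by more than 1. Under the same test 491 features had an unadjusted p under 0.05 for normoxia and 585 for constant hypoxia, with 0 passing after adjustment in either. The arrays of the 2 ends did not overlap for 1032 of 5126 features with values on all 4 (20.1%) with both 4-week arrays above both 1-week arrays, and for 968 (18.9%) with both below. In normoxia these shares were 19.3% and 23.6%, and in constant hypoxia 19.2% and 21.3%.

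The feature with the smallest p was probe number 2865, which has no gene symbol in the platform annotation. It read -1.25 and -1.55 at 1 week, 0.08 on 2 weeks A, and -0.24 and -0.01 at 4 weeks, with no value on 2 weeks B. Both 1-week arrays lay far below the 3 later ones. The difference of 4 minus 1 week was 1.27 (SE 0.22, n = 2 arrays a week, limma adjusted p = 0.391). Its 40 neighbours within 50 probe numbers had medians of 0.11 and 0.15 on the 1-week arrays and -0.06 and 0.07 on the 4-week arrays. Adjusted p fell below the threshold for this probe when array spreads were equalised (0.0451), when arrays were weighted (0.0319) and when a running median along the probe numbers was removed (0.0447). Every other feature had an adjusted p of 0.9998 or higher. One more gene, Cndp2, a cytosolic dipeptidase chosen here after its values were seen, showed how far 2 arrays of a group can disagree: it read 0.03 on both 1-week arrays, 0.42 on 2 weeks B, and 2.67 and -1.57 at 4 weeks. Without 4 weeks B it passed alone, with a difference of 2.64 (adjusted p = 0.0107), and without 4 weeks A the difference was -1.60.

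The 10 genes with the smallest unadjusted p among those higher at 4 weeks had differences of 0.67 to 1.28. None passed the adjusted threshold. All had both 4-week arrays above both 1-week arrays, which choice by smallest p favours and which 20.1% of all features also showed. Rrp1b, a nucleolar protein of ribosomal RNA processing, read -0.25 and 0.04 at 1 week, 0.15 on 2 weeks B, and 0.91 and 0.76 at 4 weeks, a difference of 0.94 (SE 0.21). It stood near the array median up to 2 weeks and clearly above it at 4 weeks. Dynlrb1, a light chain of the dynein motor, read -0.90 and 0.11, then 0.01 and 0.27, then 1.04 and 0.73. Nabp1, a single-strand DNA-binding protein of the damage response, read 0.18 and 0.21, then -0.13 on 2 weeks B, then 1.54 and 1.06. Probes for Dynlrb1 and Nabp1 hold consecutive numbers in the table (14669 and 14670), and their neighbours' medians were between -0.08 and 0.29 on the 1-, 2- and 4-week arrays. Plpp5, a lipid phosphatase, took another course. Its values were 0.37 and 0.06 at 1 week, 0.81 and 1.45 at 2 weeks, and 0.82 and 1.52 at 4 weeks, so the later 4 arrays did not overlap the 1-week arrays and did overlap each other.

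Ndufc2, an accessory subunit of mitochondrial complex I, was lowest at the start, with -1.37 and -0.57 at 1 week, -0.09 and -1.07 at 2 weeks, and 0.01 and 0.20 at 4 weeks, a difference of 1.08 (SE 0.37, unadjusted p = 0.0107). Its ratio thus ended at the array median. Tdp2, which removes topoisomerase 2 adducts from DNA ends, had the same shape: -1.07 and -0.87, then -0.15 on 2 weeks B, then 0.29 and -0.10. Fbxo21, a ubiquitin ligase subunit, read -0.41 and -0.89 at 1 week, -0.46 and -0.69 at 2 weeks, and 0.06 and 0.26 at 4 weeks, so its arrays separated only between 2 and 4 weeks. Agrn, the basement membrane proteoglycan agrin, differed by 0.67, Brms1, a component of a histone deacetylase complex, by 0.70, and Spic, a transcription factor of iron-recycling macrophages, by 1.01. Spic read -0.05 on both 1-week arrays, -0.01 on 2 weeks A and 0.89 and 1.02 at 4 weeks.

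Among genes lower at 4 weeks, the 10 with the smallest unadjusted p had differences of -1.19 to -0.59, again with none past the adjusted threshold. Avpi1, a protein induced by vasopressin, had the highest starting ratio: 1.39 and 1.03 at 1 week, 0.90 on 2 weeks A, and 0.34 and -0.07 at 4 weeks, a difference of -1.08 (SE 0.27, unadjusted p = 0.00146). The 23 neighbours of its probe had medians of 0.29 and 0.53 at 1 week, 0.55 on 2 weeks A and 0.23 and 0.24 at 4 weeks. Pcna, the sliding clamp of DNA replication, read 0.47 and 0.15, then 0.37 on 2 weeks A, then -0.51 and -0.99, a difference of -1.06 (SE 0.28). Its ratio was above the array median up to 2 weeks and below it on both 4-week arrays. Med21, a subunit of the Mediator complex, read 0.11 and 0.43 at 1 week, -0.30 and 0.42 at 2 weeks, and -0.65 and -1.01 at 4 weeks.

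Arpc2, a subunit of the actin-nucleating Arp2/3 complex, was the most different of the 10 at -1.19 (SE 0.40), but its 4-week arrays lay apart, at -0.26 and -1.38. Ctsh, the lysosomal protease cathepsin H, gave close values within each end: 0.56 and 0.44 at 1 week, and -0.42 and -0.41 at 4 weeks, with -0.11 and 0.87 between. Tmed5, a cargo receptor of the early secretory pathway, Tmem30a, a subunit of lipid flippases, and Mb21d2, a gene related to the DNA sensor cGAS, differed by -0.92, -0.74 and -0.71. Tmed5 read 0.62 and 0.53 at 1 week but 0.18 and -0.88 at 4 weeks, so its difference was -0.40 without 4 weeks B, and that of Tmem30a was -0.45 without 1 week A. Of 80 named genes for which arrays were left out in turn, 44 moved by more than 1.5 times or turned sign without 1 of the arrays. With the running median along the probe numbers removed, the differences of Tmed5 (-0.44), Arpc2 (-0.76) and Spic (0.66) were smaller by more than 1.5 times, and all 20 genes kept their sign.

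**Figure D2:**
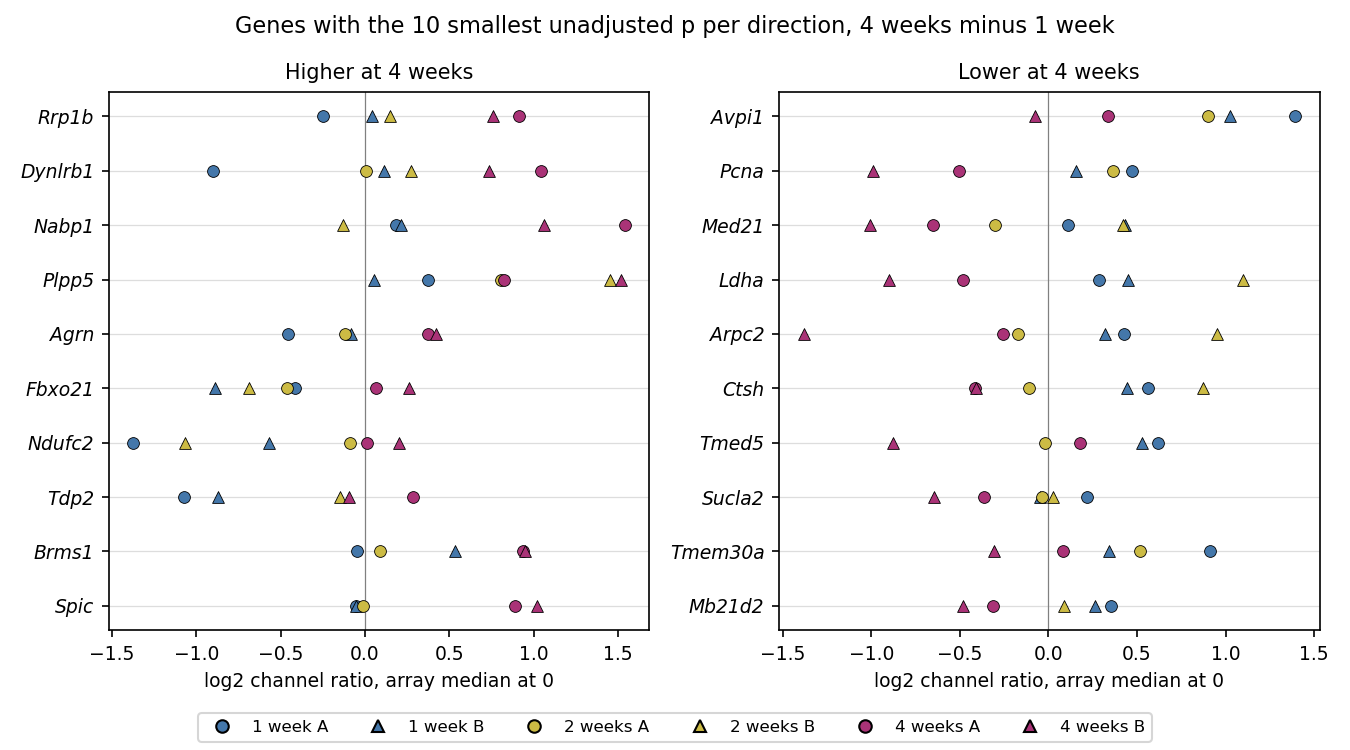
Median-centred log2 channel ratio (horizontal axis) of the 10 genes per direction with the smallest unadjusted p for 4 weeks minus 1 week. Each point is 1 array, coloured by week, with circles for A and triangles for B. The 1-week and 4-week points of each gene do not overlap, which choice by smallest p favours. The 2-week points fall on either side, as for Fbxo21 (-0.46 and -0.69) and Plpp5 (0.81 and 1.45).

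All 7 measured enzymes of glycolysis had a lower ratio at 4 weeks than at 1 week, with a median difference of -0.22, where 2931 of 5751 features were lower and the median of all was -0.01. Ldha, the lactate dehydrogenase subunit that regenerates NAD for glycolysis and a HIF target, read 0.29 and 0.45 at 1 week, 1.10 on 2 weeks B, and -0.48 and -0.90 at 4 weeks. That was a difference of -1.06 (SE 0.35, unadjusted p = 0.00868), and Ldha was the only member with an unadjusted p under 0.05. Its 49 neighbours had medians of 0.42 and 0.31 at 1 week, 1.24 on 2 weeks B, and 0.05 and 0.01 at 4 weeks, and with the running median removed its difference was -0.79. Pgk1, phosphoglycerate kinase, read -0.14 and 0.16, then 0.01 and 0.15, then -0.41 and -0.31. Aldoa, the muscle-type aldolase, read 0.42 and 0.47, then 0.06 and -0.31, then 0.15 and -0.15. Pgam1, phosphoglycerate mutase, read 0.24 and -0.12 at 1 week and -0.17 and -0.14 at 4 weeks. For these 4 genes both 4-week arrays lay below both 1-week arrays (4 of 7, against 18.9% of all features). The arrays overlapped for Ldhb (-0.21), Pkm (-0.07) and Hk1 (-0.04), the other dehydrogenase subunit, pyruvate kinase and hexokinase. With the running median removed the median difference of the list was -0.13.

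The upstream promoter sequences of 3 of these glycolytic genes are shown because their ratios were lower together and because glycolytic promoters are textbook sites of HIF binding. Each is the 250 bases before the transcription start in RefSeq (GRCm38.p6), 5′ to 3′ on the gene's strand, and capitals mark every match on either strand to ACGTG or GCGTG, the core of the HIF response element. Adjoining or overlapping matches, such as both strands of a palindrome, run together.
Ldha, chr7:46845554-46845803, plus strand: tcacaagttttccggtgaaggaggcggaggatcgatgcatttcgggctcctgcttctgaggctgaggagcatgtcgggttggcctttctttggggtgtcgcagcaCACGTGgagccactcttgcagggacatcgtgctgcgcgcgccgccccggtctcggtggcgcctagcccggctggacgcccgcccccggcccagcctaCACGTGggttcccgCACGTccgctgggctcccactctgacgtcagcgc
Pgam1, chr19:41911621-41911870, plus strand: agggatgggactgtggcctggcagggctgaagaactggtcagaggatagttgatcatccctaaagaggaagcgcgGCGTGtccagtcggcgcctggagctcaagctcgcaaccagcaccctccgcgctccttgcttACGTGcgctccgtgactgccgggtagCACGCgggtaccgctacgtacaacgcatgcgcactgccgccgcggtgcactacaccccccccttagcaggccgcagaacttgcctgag
Pgk1, chrX:106186850-106187099, plus strand: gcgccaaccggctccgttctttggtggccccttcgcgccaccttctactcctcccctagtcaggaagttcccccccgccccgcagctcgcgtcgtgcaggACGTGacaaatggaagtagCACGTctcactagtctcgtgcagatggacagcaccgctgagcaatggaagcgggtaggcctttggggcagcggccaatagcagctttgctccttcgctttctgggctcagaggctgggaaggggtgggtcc
The start of Ldha shown has 3 such places, Pgam1 3 and Pgk1 2. Another start of Ldha, not shown, has 1. Aldoa, also lower without overlap but not shown, has 3 starts with 1, 1 and 0 places, and its match lies in windows that overlap. Of the 12 starts listed for the 7 measured glycolysis genes, 9 (75%) held at least 1 of these motifs in the 250 bases, against 38.6% of the 32851 starts in the table (16.6% for ACGTG and 28.2% for GCGTG). A match is a description of the letters, and binding was not measured here. Whether HIF had a part in the lower ratios was not tested.

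Lists of mitochondrial fuel oxidation also had mostly lower ratios, where 51.0% of all features were lower, 18.9% lay below without overlap and 20.1% above. In the tricarboxylic acid cycle and pyruvate dehydrogenase list 16 of 20 members had a lower ratio at 4 weeks (median -0.15), and 8 of 19 with complete values had both 4-week arrays below both 1-week arrays while 0 had both above. Sucla2, a subunit of the ATP-forming succinyl-CoA synthetase, read 0.22 and -0.05, then -0.04 and 0.03, then -0.36 and -0.64, a difference of -0.59 (SE 0.22, unadjusted p = 0.0170). Pdhb, the E1 beta subunit of pyruvate dehydrogenase, read -0.16 and 0.21, then -0.51 and -0.23, then -0.27 and -0.74, a difference of -0.53 (SE 0.25). Both sat near the array median at 1 week and below it at 4 weeks. Dlat, Sdhd and Mdh1 were also without overlap and lower, by -0.30, -0.36 and -0.31, and Idh3a, Idh2 and Dlst differed by 0.06 or less in size. In fatty acid oxidation and peroxisome genes 15 of 20 were lower (median -0.17), with 6 of 17 below without overlap and 0 above. Pex16, which inserts peroxisomal membrane proteins, differed by -0.55 (SE 0.27), Pex19, their chaperone, by -0.32, and the short-chain dehydrogenase Acads by -0.35. Without 1 week A the median of the list was -0.07. For oxidative phosphorylation 29 of 46 were lower, 10 of 43 lay below and 5 above, and the median was -0.03 (-0.09 to 0.05 with 1 array left out). Beside Ndufc2 the ATP synthase subunit gene Atp5k differed by -0.62 (SE 0.31). No member of these lists passed the adjusted threshold.

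HIF targets outside glycolysis showed no common course. Of 12, 8 were lower and 4 higher, with a median of -0.10, where 51.0% of all features were lower. Of 11 with complete values 1 lay apart in each direction, against 18.9% of all features below and 20.1% above. Bnip3l, a mitophagy receptor, read 0.28 and 0.22, then 0.15 and 1.18, then -0.02 and -0.34, a difference of -0.43 (SE 0.30). The probes of Bnip3l differed unequally, by -0.77 for number 1565 and by -0.085 for number 7874. Pfkfb3, which makes the activator of phosphofructokinase, differed by 0.14 with both 4-week arrays above. Slc2a3, a glucose transporter, differed by -0.40 (SE 0.35), which rested on 1 week B at 1.01, and without that array the difference was 0.15. Antioxidant and glutathione genes were near balance, 11 higher and 13 lower of 24. Prdx1, a peroxiredoxin, differed by -0.52 (SE 0.24) and Mt2, the metal-binding metallothionein, by 0.85 (SE 0.51), with 0.16 and 0.45 at 1 week and 0.73 and 1.59 at 4 weeks.

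Ribosomal protein and proteasome genes mostly had lower ratios at 4 weeks, by small amounts, where 51.0% of all features were lower, 18.9% lay below without overlap and 20.1% above. In the list of cytosolic ribosomal proteins 47 of 68 were lower (median -0.10, and -0.028 without 4 weeks A), and 19 of 66 lay below without overlap against 4 above. For the ribosomal proteins of mitochondria 25 of 36 were lower (median -0.12, and -0.047 without 4 weeks A), 12 of 33 below and 5 above. Rpl17 differed by -0.90 (SE 0.31, from 1 array at 1 week), Rps26 by -0.46, Mrps25 by -0.68 and Mrpl23 by 0.46. For proteasome and ubiquitin genes 32 of 49 were lower (median -0.07), with Psmd5, an assembly chaperone of the proteasome, at -0.73 and the catalytic-core gene Psmb2 at 0.80. Psmb2 read 0.18 and 1.04 at 4 weeks, and without 4 weeks B its difference was 0.37. Translation factors and tRNA synthetases divided 25 higher to 33 lower, with Eif2a at -0.56 (SE 0.22) and Eif3f at 0.62 (SE 0.27). Chaperones divided 24 to 30, led by the mitochondrial Hsp70 gene Hspa9 (-0.73) and the chaperonin subunit gene Cct5 (-0.62), and splicing factors 31 to 25, with Hnrnpd at 0.81 and Sf3b6 at -0.48. For cell cycle and DNA replication genes 16 of 28 were lower and 10 of 24 lay below without overlap against 2 above. Prim1, the catalytic subunit of DNA primase, read 0.51 and 0.28 at 1 week, -0.06 on 2 weeks B and -0.09 and -0.45 at 4 weeks, a difference of -0.67 (SE 0.26), beside Pcna. Gmnn, the licensing inhibitor geminin, went against the list at 0.85, with both 4-week arrays above.

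Genes of single nephron segments and other cell types were few and divided. In bulk tissue, fewer cells of a type and less RNA per cell cannot be told apart. Of 5 proximal tubule genes, Miox, which breaks down inositol, differed by 0.49 (SE 0.34) and Slc22a7, an organic anion transporter, by -0.42 (SE 0.24). Calb1, the calcium-binding protein of the distal tubule, differed by 0.36 and Slc4a1, the anion exchanger of red cells and intercalated cells, by 0.44. The 3 probes of Calb1 differed by 0.43, 0.31 and -0.29, and without 1 week B the gene differed by -0.15. Of 4 podocyte and glomerulus genes 3 were lower and 1 higher. Wt1 differed by -0.55 and Cd2ap by -0.36, while Podxl read -0.21 and -0.45 at 1 week and -0.11 and 0.10 at 4 weeks. In the list of nephron progenitor and fetal growth genes, 5 of 8 were higher, with the imprinted genes Mest at -0.42 and Cdkn1c at 0.46. In the renin and angiotensin list 5 of 6 were higher, with a median of 0.31, which was 0.090 without 1 week B and 0.54 without 4 weeks A. Agt, angiotensinogen, read -0.45 and -0.99, then -0.70 and -1.48, then -0.26 and 0.12, a difference of 0.65 (SE 0.39). The 28 neighbours of its probe had medians of -0.60 and -0.57 at 1 week, -0.74 and -1.01 at 2 weeks and -0.15 and -0.07 at 4 weeks. Agtrap, a binding partner of the angiotensin receptor, differed by 0.93 (SE 0.41) with 1 array at 1 week. Among 63 solute carriers 31 were higher and 32 lower, with Slco3a1 at -0.84, and among 34 ion pumps, channels and aquaporins 14 were higher, with Clic4 at 0.96 and Kcnk1 at 0.89, the second resting on 4 weeks B at 1.53.

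Blood and matrix genes made up small lists. Hbb-b1, an adult beta globin, read -0.82 and -1.86 at 1 week, -0.17 and -0.43 at 2 weeks and -0.05 and 0.47 at 4 weeks, a difference of 1.55 (SE 0.65, unadjusted p = 0.0333). Its 45 neighbours had medians of -0.61 and -0.47 at 1 week and -0.10 and -0.05 at 4 weeks. Gata1, the erythroid transcription factor, read -0.33 and -0.32 at 1 week and 0.29 and 0.27 at 4 weeks, with 0.21 and -0.65 between. The 29 neighbours of its probe (12219), among them those of Spic (12216) and Hnrnpd (12198), had medians of -0.27 and -0.23 at 1 week and 0.09 and 0.04 at 4 weeks. The erythroid and iron list as a whole divided 4 to 4. Fcer1g, a signalling chain of immune receptors, differed by 0.75, and of 6 leukocyte genes 4 were higher. Of 6 endothelial genes 2 were higher and 4 lower. None of 3 with complete values lay apart in either direction, against 18.9% of all features below and 20.1% above. Ackr3 and Emcn differed by -0.48 and -0.55, each with 1 array at 4 weeks. Matrix genes divided 9 higher to 12 lower of 21, with Col4a2 of the basement membrane at 0.38 and the gelatinase Mmp2 at 0.59. Mmp2, Psmd5 and Atp5k had a value on 1 array at 1 week, and Eif3f on 1 at 4 weeks. Of 4 injury genes 3 were higher, with Clu, clusterin, at 0.36 without overlap. Krt18 differed by 0.13, but its 2 probes differed by 0.62, with 1 array at 4 weeks, and by -0.22. For genes of neighbouring tissues, Nr5a1 and Hsd3b1 of the adrenal differed by -0.32 and 0.00, Lpl of fat by -0.25, and Apoa1 of liver by -0.99 (SE 1.03). Apoa1 read 0.58 and -0.49 at 1 week and -0.95 on 4 weeks A alone. The 2 probes of Hsd3b1 differed by 0.47 and -0.14.

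Sex-biased kidney genes are of interest because every array sets an animal labelled male against one labelled female. Of 8 measured, 6 were lower at 4 weeks (median -0.23), where 51.0% of all features were lower. Of 7 with complete values 3 lay below without overlap and 1 above, against 18.9% and 20.1% of all features. Timd2, a ferritin receptor, read 0.00 and 0.40, then 0.01 on 2 weeks A, then -0.32 and -1.70, a difference of -1.21 (SE 0.55, unadjusted p = 0.0479). Odc1, the androgen-induced ornithine decarboxylase of polyamine synthesis, read -0.03 and 0.21, then -0.10 and -0.77, then -0.11 and -1.42. In both genes 4 weeks B carried most of the difference. Gusb, beta-glucuronidase, read 0.24 and 0.72, 0.59 and 0.27, then 0.34 and 0.77, and Nudt19, a peroxisomal CoA hydrolase, read -0.59 on 1 week A, -1.12 on 2 weeks A and 0.12 and -1.53 at 4 weeks. Gusb stayed above the array median on all 6 arrays and its weeks overlapped, and its 2 probes differed by 0.17 and -0.30. Of the X-linked genes that escape inactivation, Kdm5c differed by 0.33 (SE 0.24) and Ddx3x by -0.61. Kdm6a differed by 0.42, but its 2 probes by 0.089 and 0.12, as each lacked a value on a different array, and without 4 weeks B the gene differed by 0.035. The Y-linked Eif2s3y differed by 0.22 (SE 0.88). Hdc, which makes histamine and is sex-biased in mouse kidney, read 0.22 and -1.80, then -1.91 on 2 weeks A, then -0.55 and 0.94, so its arrays overlapped and the difference was 0.98 (SE 0.77).

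**Figure D3:**
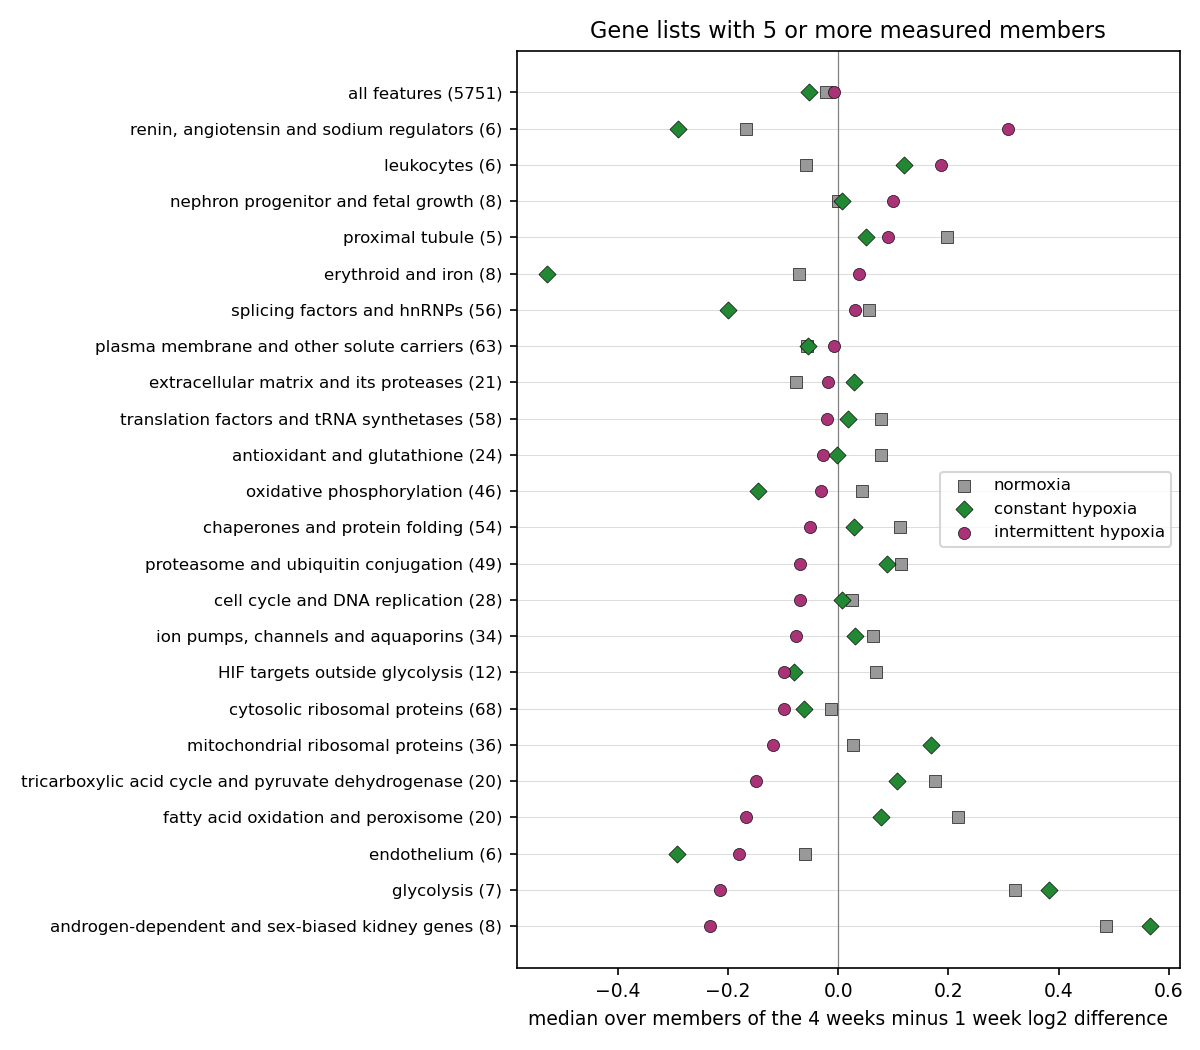
Median over the members of each gene list of the 4 weeks minus 1 week difference (horizontal axis, log2 scale) in intermittent hypoxia, normoxia and constant hypoxia, with the number of measured members in brackets. Glycolysis is at -0.22 in intermittent hypoxia and at 0.32 and 0.38 in the other conditions, while the median of all features lies between -0.05 and -0.01 in the 3 conditions.

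At 2 weeks a few genes passed the test, all on array 2 weeks B. Against 1 week, 2 of 5751 features (0.0348%) were called, both higher, and against the mean of 1 and 4 weeks 4 (0.0696%). The 4 genes, named after their values were seen, were Cdh1, Arrb2, Psmd12 and Tubb6, and none of them had a value on 2 weeks A. Tubb6 also had none on 4 weeks B. Each SE and adjusted p for these genes therefore sets 1 array at 2 weeks against the others and assumes that it varies like the other groups. Cdh1, the epithelial adhesion protein E-cadherin, rose to 1.74 on 2 weeks B from -0.34 and -0.50 at 1 week, and read -0.02 and -0.06 at 4 weeks. Its difference from 1 week was 2.16 (SE 0.30, adjusted p = 0.0328). Arrb2, the receptor adaptor beta-arrestin 2, rose to 2.32 from 0.10 and 0.30 and read 0.27 and 0.47 at 4 weeks, a difference of 2.12 from 1 week (adjusted p = 0.0452). Psmd12, a proteasome lid subunit, rose by 1.67 over the mean of 1 and 4 weeks and Tubb6, a beta tubulin, by 1.73 (adjusted p = 0.0370 for both). These calls were also lost when only the 6 arrays were fitted or when array spreads were equalised. With 2 weeks B left out 0 features were called, and no other array at 2 weeks measured these genes. Without 2 weeks A, when 2 weeks B stood for the duration alone and was assumed to vary like the other groups, 321 features were called against 1 week and 525 against the mean of 1 and 4 weeks. Leaving out either 1-week array, or 4 weeks A, gave 0 for both, and leaving out 4 weeks B gave 0 and 6.

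High values on 2 weeks B clustered along the probe numbers. Probes for Arrb2, Cdh1 and Psmd12 are numbers 9804, 9806 and 9879, and 93.8% of the neighbours within 50 numbers of Cdh1 lay above the array median on 2 weeks B, with a median of 0.82. The same neighbours had a median of -0.18 on 2 weeks A. A running median of the ratio along the table accounted for 43.2% of the variance on 2 weeks B, for 30.7% to 38.3% on the other arrays of 1 and 2 weeks, and for 16.7% and 10.4% on the 4-week arrays. With it removed, the differences from 1 week were 1.25 for Cdh1 and 1.19 for Arrb2 and neither was called. Tubb6, at 1.45 over the mean of 1 and 4 weeks, still was, but rested on 1 array at 2 weeks and 1 at 4 weeks. Brd3, Chmp5 and Ewsr1, also without a value on 2 weeks A, were newly called in that setting. Sources used here do not say how probe numbers map to places on the slide.

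**Figure D4:**
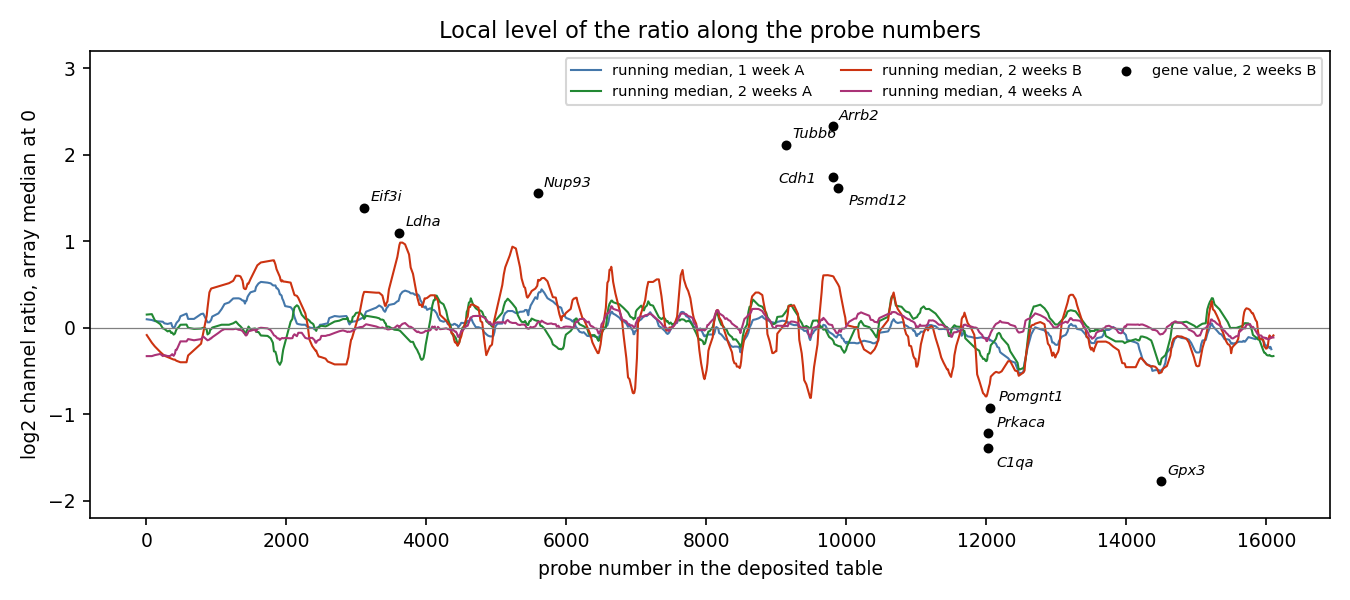
Running median of the median-centred log2 ratio (vertical axis) along the probe numbers of the table (horizontal axis) for 4 of the arrays, with the value on 2 weeks B of 11 named genes as black points. On 2 weeks B the running median reached from -0.82 to 0.98, against -0.33 to 0.25 on 4 weeks A.

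Genes with values on all 6 arrays allow the 2-week level to be read on both arrays. For 336 of 3820 such features both 2-week arrays lay above the other 4 (8.80%), and for 308 both lay below (8.06%). None of these passed, and the 5 genes per direction with the smallest p had differences of 0.79 to 1.24 in size from the mean of 1 and 4 weeks. Setd1a, a histone H3 lysine methyltransferase, read 0.45 and 1.11 at 2 weeks against -0.38 to -0.22 on the other 4 arrays (1.08, adjusted p = 0.146), and Nup93, a nuclear pore scaffold, 1.33 and 1.55 against -0.62 to 0.63. Glrx3, a carrier of iron-sulfur clusters, read 0.78 and 1.20 against -0.15 to 0.27. Ndufaf4, an assembly factor of complex I, and Eif3i, a translation initiation subunit, differed by 0.87 and 1.13. In the other direction C1qa, a complement component made by macrophages, read -1.11 and -1.40 at 2 weeks against -0.34 to -0.03 on the other arrays (-1.06, adjusted p = 0.131). Gpx3, the plasma glutathione peroxidase that proximal tubules secrete, read -1.44 and -1.77 against -0.91 to 0.05. Aar2, a spliceosome assembly factor, read -0.88 and -0.78, below both 4-week arrays (-0.23 and -0.38) and both 1-week arrays (0.25 and 0.22). Prkaca, the catalytic subunit of protein kinase A, and Pomgnt1, a glycosyltransferase of dystroglycan, differed by -0.96 and -0.80. C1qa, Prkaca and Pomgnt1 hold probe numbers 12020, 12030 and 12054, where neighbours on 2 weeks B had medians of -0.85 to -0.87 and on 2 weeks A of -0.38 to -0.39. With the running median removed these 3 genes differed by -0.61, -0.55 and -0.45, Ndufaf4 by 0.52 and Eif3i by 0.62. Setd1a (1.02), Nup93 (1.09), Glrx3 (0.86), Gpx3 (-0.996) and Aar2 (-0.80) moved less. Aar2, with values on both 2-week arrays, was then called lower for 2 minus 1 week (limma adjusted p = 0.0308).

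**Figure D5:**
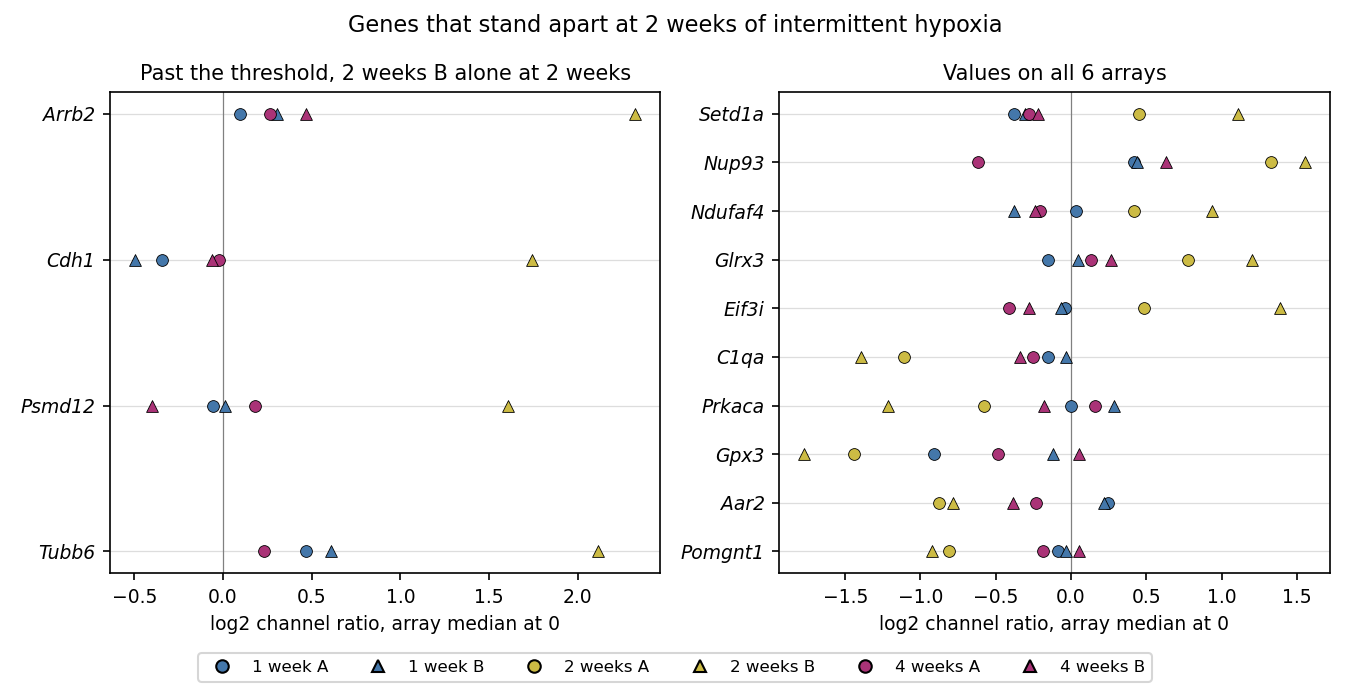
Median-centred log2 channel ratio (horizontal axis) of genes that stood apart at 2 weeks, each point 1 array, coloured by week, with circles for A and triangles for B. On the left the 4 genes past the threshold have a single 2-week point, on 2 weeks B at 1.61 to 2.32; on the right genes with all 6 arrays have both 2-week points outside the other 4.

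Over the 3 durations the commonest order of the weekly means put 2 weeks at an end, as do 4 of the 6 possible orders. Of 3820 features with all 6 arrays, the mean was lowest at 2 weeks and highest at 4 in 22.1%, highest at 2 weeks and lowest at 4 in 21.8%, and it was ordered steadily upward or downward with time in 11.8% each. Without 2 weeks B these shares were 15.8%, 18.3%, 14.1% and 13.5% of 4679 features, so the shares of both steady courses were larger and those of the first 2 orders smaller. The mean was lowest at 2 weeks and highest at 1 in 19.2%, and highest at 2 weeks and lowest at 1 in 13.3%. Without 2 weeks B these were 19.6% and 18.7%, and lowest at 2 weeks and highest at 1 was then the commonest order. The test for any change over the 3 durations called 0 features (395 with an unadjusted p under 0.05). The 4 minus 2 week comparison called 0 as well (546 with an unadjusted p under 0.05, smallest adjusted p = 0.0941). Without 2 weeks A these tests called 266 and 448 features, and without 4 weeks B 4 each. The median size of the weekly mean was 0.16 at 1 week, 0.28 at 2 weeks (0.23 without 2 weeks B) and 0.14 at 4 weeks.

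Whether the 4 minus 1 week difference was particular to intermittent hypoxia was tested against the same difference in normoxia. No feature passed (0 of 5751; 480 with an unadjusted p under 0.05, 344 higher and 136 lower). The smallest adjusted p was 0.302. The 3 genes per direction with the smallest p were Efhd2 (1.49, SE 0.29), Nabp1 (2.19, SE 0.44) and Brms1 (1.56, SE 0.35), all higher relative to normoxia, and Pgk1 (-1.43, SE 0.33), Adcy3 (-1.36, SE 0.34) and Entpd4 (-1.43, SE 0.38), all lower. Efhd2, a calcium-binding regulator of actin, read 0.10 and 0.07, then 0.33 and 0.53, then 0.59 and 0.57 in intermittent hypoxia. Pgk1 differed by only -0.37 within intermittent hypoxia, so most of its difference lay in normoxia. Median differences from normoxia were -0.63 for glycolysis, -0.42 for the tricarboxylic acid cycle list and -0.50 for fatty acid oxidation and peroxisome, against 0.01 over all features. Of their members 6 of 7, 16 of 20 and 15 of 20 were lower, where 2830 of 5751 features were lower. In normoxia itself the medians of these lists were 0.32, 0.18 and 0.22, and in constant hypoxia 0.38, 0.11 and 0.08.

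Against constant hypoxia no feature passed either (0 of 5751; 543 with an unadjusted p under 0.05, smallest adjusted p = 0.505). Constant hypoxia arrays had deposited medians of -1.17 to -0.15, where those of intermittent hypoxia lay within 0.03 of 0, and array medians were subtracted from both. The genes with the smallest p were Ndufc2 (2.49, SE 0.52), Msmo1 of cholesterol synthesis (1.47) and Ilf2, an RNA-binding protein (1.69), higher relative to constant hypoxia, and Avpi1 (-1.69), Ube2o, a ubiquitin-conjugating enzyme (-1.95), and Slco3a1 (-2.53), lower. For Msmo1 and Ilf2 the difference within intermittent hypoxia was 0.16 and 0.46. Without array 4 weeks B of constant hypoxia 658 features were called, a comparison that then rests on 4 weeks A of that condition, where 16.4% of values lay beyond 1 in size.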

How the data were processed

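The authors deposited 1 log2 ratio of Cy5 and Cy3 per probe and array, per the labels a male and a female animal. The log2 base was read from the values: on each intermittent hypoxia array 72.7% to 76.3% of 1000 sampled values were base-2 logs of ratios of whole numbers, against at most 1.3% in base e or 10. The labels and files give no background correction, normalization, numerator channel, intensity or genome build, so the depth behind a value is unknown and the number of arrays limits precision. Arrays were grouped by title, and arrays of a group held animals with different names. Of 16128 probes, 6518 (40.4%) were kept, those with a value for 15 or more of the 18 arrays that left no group empty. Of all probes 9604 had 1 gene symbol, 213 several and 6311 none. Probes of a symbol were averaged (642 genes had several), which left 5751 features, and each array's median was subtracted.

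All 18 arrays were fitted in limma 3.58.1 (R 4.3.3) with 9 group means and eBayes (prior df 5.55). Tests were two-sided, with Benjamini-Hochberg adjustment over all features and a threshold of 0.05, and were tested on simulated data. The fit with the letters A and B as a block was an alternative, as the letters did not pair the arrays (correlations of deviations -0.12 to -0.18). Gene lists are described by counts and medians only. Named genes were the 10 smallest p per direction for 4 minus 1 week, 5 for 2 weeks against 1 and 4 weeks, 3 for each difference between conditions, 2 per list, and a few of prior interest, of which Ren1 was not measured. The members, lists and rules were chosen with earlier results of these data known. Promoter sequences are RefSeq's (GRCm38.p6). Alternatives were the deposited values, fewer arrays, equalised spread, array weights, other filters, a running median along the probe numbers, single probes, a robust prior and each array left out.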

Additional observations from a re-analysis of the deposited data

How the results depend on the processing

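Across settings the 4 minus 1 week comparison called 0 features except 1 (probe 2865) with array spreads equalised, with array weights and with the running median removed, with or without 2 weeks B. Leaving out each array in turn gave 0 to 1 features for it. Called features for 2 minus 1 week numbered 1 on the deposited values, 0 on the 6 intermittent arrays alone, on 12 arrays, with equalised spreads, with weights and on features with all 18 values, 1 with no filter, 9 with the running median removed and 3 on single probes. For 2 weeks against 1 and 4 weeks they numbered 2, 0 in the same 5 settings, 9 with no filter, 5 with the running median removed and 6 on single probes. With the running median removed and 2 weeks B left out, both had 0. Single probes gave 2 for 4 minus 2 weeks. The test of any change called 1 with equalised spreads, 5 with the running median removed, 4 on single probes and 1 with the running median removed and 2 weeks B left out. With the letters as a replicate block, and with the letters of 4 weeks crossed, 4 minus 1 week had 0 calls, and 2 minus 1 week and 2 weeks against 1 and 4 weeks 1 each. Left-out arrays gave 0 to 321 calls for 2 minus 1 week, 0 to 448 for 4 minus 2 weeks, 0 to 525 for 2 weeks against 1 and 4 weeks and 0 to 266 for any change. The highest counts were all without 2 weeks A, when 2 weeks B stood alone and was assumed to vary like the other groups. Left-out arrays gave 0 to 1 for the difference from normoxia (Cndp2 without 4 weeks A) and 0 to 658 for that from constant hypoxia. The cause of these changes was not tested.

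List medians for 4 minus 1 week moved to -0.29 (glycolysis) and -0.24 (fatty acid oxidation) with equalised spreads. With the running median removed they moved to -0.13 (glycolysis), -0.11 (proximal tubule), -0.017 (cell cycle), -0.12 (antioxidant) and -0.0029 (ion channels). Leaving out each 1- and 4-week array in turn gave medians of -0.063 to 0.0061 (HIF targets), -0.31 to -0.20 (glycolysis), -0.091 to 0.054 (oxidative phosphorylation), -0.15 to -0.074 (fatty acid oxidation), -0.082 to 0.30 (nephron progenitors), 0.090 to 0.54 (renin and angiotensin), -0.16 to -0.028 (cytosolic ribosomal proteins), -0.28 to -0.066 (endothelium), -0.089 to 0.046 (matrix), 0.0091 to 0.18 (leukocytes), -0.10 to 0.0054 (antioxidant genes), -0.25 to -0.047 (mitochondrial ribosomal proteins), -0.011 to 0.086 (splicing factors), -0.016 to 0.074 (solute carriers), -0.026 to 0.0098 (ion channels) and -0.54 to -0.10 (sex-biased genes).

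Signs turned for Krt18 (-0.21) and Hsd3b1 (-0.13) on features with all 18 values, for Hsd3b1 with equalised spreads (-0.074) or the running median removed (-0.088), and for Gpx3 (-0.15) with the running median removed, both with and without 2 weeks B. Leaving out each array in turn gave differences that held both signs: -0.95 to 0.15 (Slc2a3), -0.15 to 0.87 (Calb1), -0.030 to 2.00 (Hdc), -0.052 to 1.83 (Kcnk1), -0.18 to 0.19 (Hsd3b1), -0.95 to 1.40 (Eif2s3y), -0.17 to 0.31 (Gusb), -0.95 to 0.70 (Nudt19), -0.10 to 0.69 (Gpx3) and -1.60 to 2.64 (Cndp2). The others of the 80 named genes for which arrays were left out in turn kept their sign in every setting run. Further list members named in the text, such as Pkm and Hk1, were not among the 80.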
